A study of Mus musculus with 2 samples.

Results

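Cytosolic ribosomal protein genes encode the protein part of the ribosome that translates nuclear-encoded messages. The members were all mouse genes with a symbol of the form Rpl or Rps followed by a number, together with Rplp0, Rplp1, Rplp2 and Rpsa, that had at least 1 transcript annotated as protein_coding, with the S6 kinase genes left out. The rule uses names and annotation. It gave 82 of the 55536 annotated genes, 50 for the large subunit and 32 for the small subunit, spread over 19 chromosomes. Chromosome 7 held the most, with 14.

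A single group was measured, RNA from the chromatin fraction of macrophages grown from the bone marrow of C57BL/6J mice and given lipid A at 100 ng/ml for 75 min. Lipid A is the part of bacterial lipopolysaccharide that Toll-like receptor 4 senses, and the chromatin fraction holds RNA that is still being transcribed or spliced. The group held 2 libraries of total RNA depleted of ribosomal RNA, replicate 1 from 250 ng and replicate 2 from 500 ng, and both carry the same donor label. No unstimulated cells and no cytoplasmic RNA were analysed here, so no difference between conditions was tested and every comparison is a description of these 2 libraries.

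In the cell, large and small subunit proteins are needed in equal numbers, since each ribosome takes one copy of nearly all of them. Their genes are short, strongly transcribed and often carry small nucleolar RNAs (snoRNAs, guides for the chemical modification of other RNAs) inside their introns. Their messages start with a run of pyrimidines, the terminal oligopyrimidine (TOP) motif, through which the kinase mTOR controls their translation. Mature ribosomal protein messages are mostly cytoplasmic.

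The annotated genes took 21453617 counts in replicate 1 and 29638814 in replicate 2. The authors quantified the same reads in 2 ways, and values are from the first, made from alignments, unless the second, made with a transcript index, is named. The tables carry no molecular identifiers, so intervals and limits cover counting error only. Of 8 macrophage markers, 7 had a TPM (a level scaled by transcript length and by the table's total) of 1 or more in both libraries, with Adgre1 (F4/80) at 80.2 and 171 TPM in replicates 1 and 2. Of the marker lists for B cells, T cells, neutrophils, erythroid cells, stromal cells and conventional dendritic cells, 0 genes reached that level in both. The summed level of each of these 6 lists was 0.07 to 2.46 TPM, Cd4 and Zbtb46 reached 1 TPM in 1 library each, and 10 of the 28 genes had 0 counts in both, among them Cd3e, Mpo and Klf1. In the second quantification 5 of the 28 were at 1 TPM or more in both libraries, namely Cd3d (13.0 and 28.8 TPM), Pecam1 (3.36 and 8.68 TPM), Zbtb46, Cd4 and Ms4a1, and their part in the results was not tested.

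Most ribosomal protein genes were present on chromatin, at moderate levels. A gene is called expressed here at 1 TPM or more in both libraries, which held for 76 of the 82 genes. By subunit it held for 46 of 50 large subunit genes and 30 of 32 small subunit genes. The share among all 22028 protein-coding genes was 34.7%. The median level of the expressed ribosomal protein genes was 11.3 TPM in replicate 1 and 15.8 TPM in replicate 2, beside 5.82 and 10.4 TPM for the 7633 expressed protein-coding genes. By mean level, 60 of the 76 lay above the protein-coding median of 8.18 TPM, 21 lay above the upper quartile of 21.4 TPM and 0 lay above 100 TPM. All members together took 0.197% of the counts on protein-coding genes in replicate 1 (exact 95% binomial interval 0.1943 to 0.1998%) and 0.153% in replicate 2 (0.1515 to 0.1549%). Of the counts on all annotated genes they took 0.0927% in replicate 1 and 0.101% in replicate 2, the opposite direction. The 2 totals differ between libraries, since protein-coding genes took 10087815 of 21453617 counts in replicate 1 and 19614383 of 29638814 in replicate 2.

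The 50 large subunit genes had a median of 10.4 TPM in replicate 1 and 15.7 TPM in replicate 2, against 10.1 and 13.4 TPM for the 32 small subunit genes. On the log2(TPM + 1) scale the large subunit median was higher by 0.03 in replicate 1 and by 0.21 in replicate 2, a mean of 0.12 ± 0.13 (SD, n = 2). The 2 values differ by more than their mean, so the subunits were not told apart by their median level. With CPM (counts scaled by the library total, not by length) in place of TPM the difference was -0.046, the opposite sign. The large subunit supplied 7 of the 10 highest genes and 14 of the 20 highest, near its 60.5% of the 76 expressed genes.

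**Figure D1:**
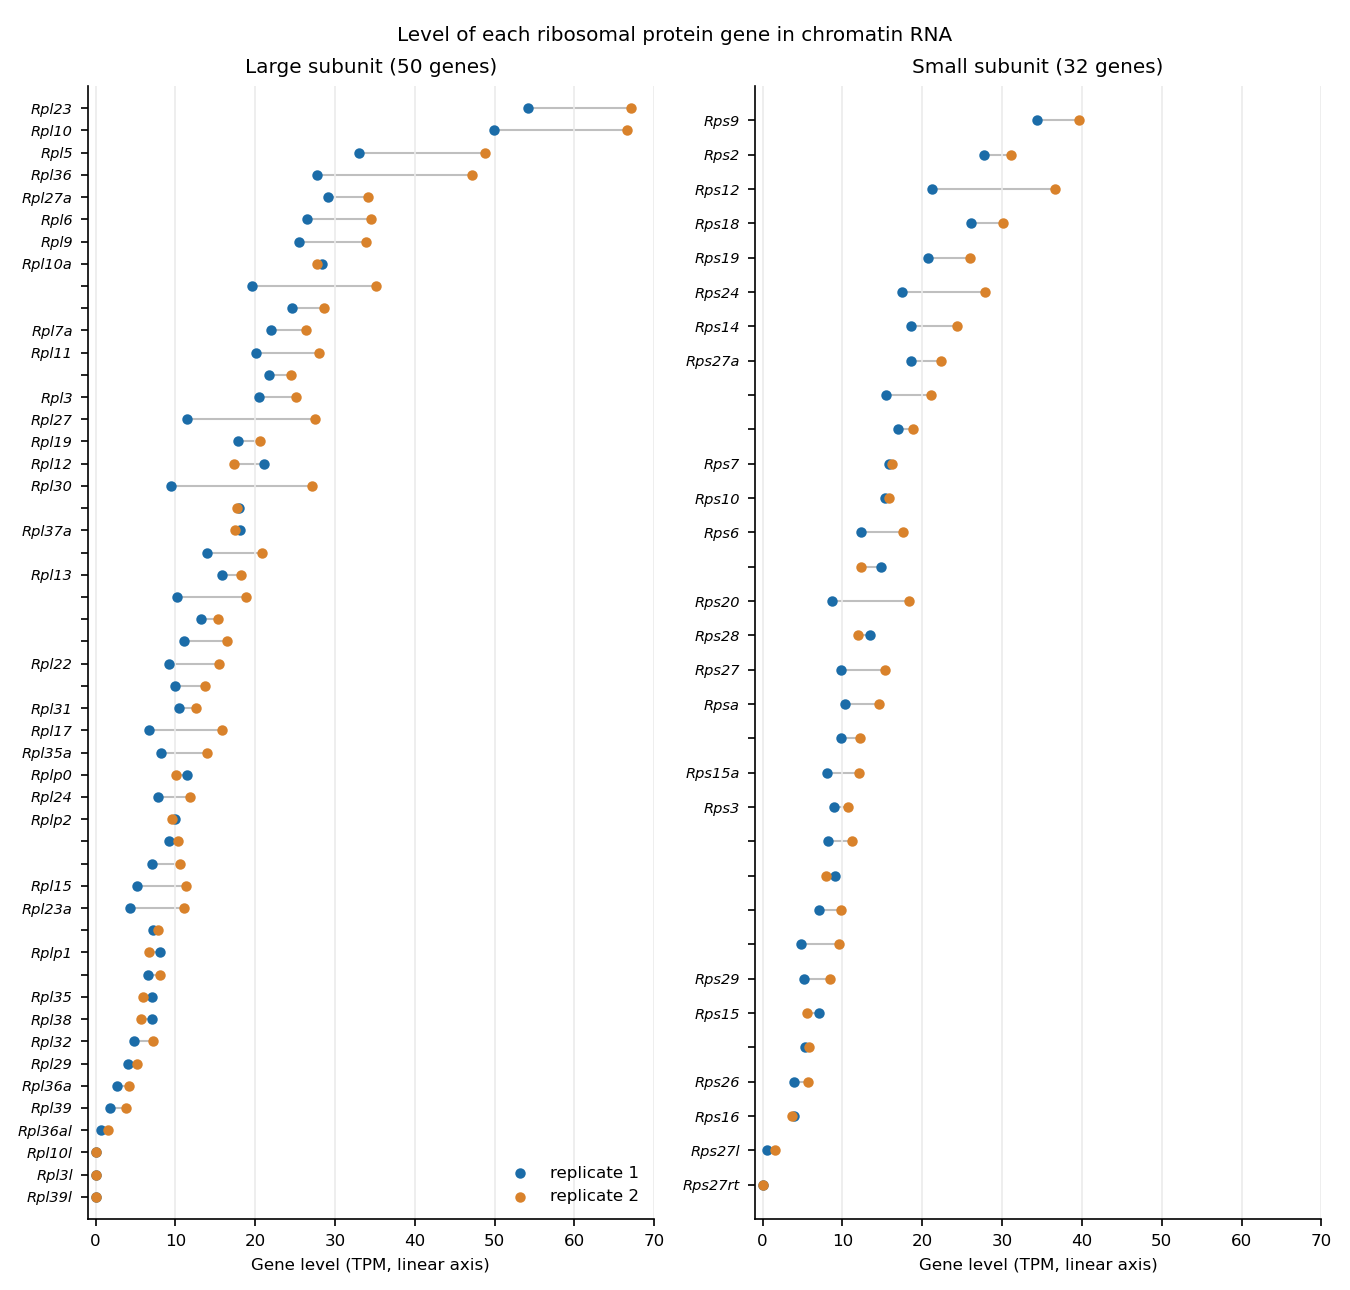
Level of each of the 82 ribosomal protein genes in TPM (linear axis), large subunit left and small subunit right, genes ordered by mean level and those named in the text labelled; blue points are replicate 1, orange points replicate 2. Most genes lie under 40 TPM in both libraries, Rpl23 and Rpl10 stand highest, and Rpl3l, Rpl10l, Rpl39l and Rps27rt lie at 0 in both.

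Rpl23 (chromosome 11, 97777527 to 97782437, minus strand), whose protein also binds the p53 regulator Mdm2, was highest, with 54.2 TPM in replicate 1 and 67.2 TPM in replicate 2 (60.7 ± 9.19 TPM, SD, n = 2). It ranked at 656 of the 7633 expressed protein-coding genes. Rpl10 (chromosome X, 74270812 to 74273135, plus strand), which joins the large subunit late in its assembly, had 49.9 and 66.5 TPM in replicates 1 and 2. Rpl5, which with Rpl11 forms the particle that carries the smallest ribosomal RNA, had 33.1 and 48.8 TPM. These 3 genes and Rpl36 (27.7 and 47.2 TPM) were followed by Rpl27a (29.1 and 34.1 TPM) and Rpl6 (26.5 and 34.6 TPM).

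Among small subunit genes Rps9 was highest, at 34.4 TPM in replicate 1 and 39.6 TPM in replicate 2. Its protein sits where the messenger RNA enters the ribosome. Rps2 had 27.7 and 31.1 TPM, Rps18 had 26.1 and 30.1 TPM, and Rps12 had 21.2 and 36.6 TPM. Rps19, the first gene found mutated in the human anaemia named after Diamond and Blackfan, had 20.8 and 26.0 TPM, and Rps24 had 17.5 and 27.9 TPM. The order among Rps2, Rps12 and Rps18 is not settled, since their means of 29.4, 28.9 and 28.1 TPM differ by less than their SDs of 2.41, 10.9 and 2.89 TPM. At the low end of the expressed small subunit genes stood Rps16 (3.97 and 3.72 TPM) and Rps26 (3.91 and 5.65 TPM).

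The order of genes was similar in both libraries, with a Pearson r of 0.935 and a Spearman rho of 0.903 over 76 genes. These genes share both libraries and their depth, so this describes the libraries only. The expressed large subunit genes spanned a 29.9-fold range in replicate 1 and a 17.4-fold range in replicate 2. The small subunit genes spanned 8.81-fold and 10.7-fold. Levels within each subunit thus differed by more than 8-fold.

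The 6 members that were not expressed were all close relatives of another member. Rpl3l, the form of heart and skeletal muscle, had 0 counts in both libraries, while Rpl3 had 804 and 939 counts (20.5 and 25.1 TPM). Rpl10l, the testis form that stands in for X-linked Rpl10 during male meiosis, had 0 counts beside 670 and 1060 counts on Rpl10. Rpl39l, also a testis form, had 0 counts beside 15.0 and 38.0 counts on Rpl39. Rps27rt, a retrotransposed copy of Rps27, had 0 counts beside 51.0 and 91.0 counts on Rps27. A count of 0 allows up to 3 counts, or 0.140 CPM in replicate 1 and 0.101 in replicate 2.

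Rpl36al had 0.65 TPM in replicate 1 and 1.62 TPM in replicate 2, beside 2.72 and 4.14 TPM for Rpl36a. Rps27l, whose human relative is a p53 target, had 0.59 and 1.51 TPM on 5 and 13 counts, beside 9.78 and 15.3 TPM for Rps27. Both missed 1 TPM in replicate 1 only. How well such pairs can be told apart depends on their sequence. The coding sequences, without the stop codon, were 73.2% identical between Rpl3l and Rpl3, 84.7% between Rpl10l and Rpl10, 87.7% between Rpl36al and Rpl36a, 85.0% between Rpl39l and Rpl39, and 76.2% between Rps27l and Rps27. At the transcript level Rpl3l, Rpl10l, Rpl36al and Rps27l shared 0% of their 31-base stretches with the partner, and Rpl39l 1.03%. Rps27rt and Rps27 had a coding identity of 100% and shared 90.4%, so the split of reads between these 2 is uncertain.

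In the first quantification, retained intron transcripts held more of the ribosomal protein signal than coding transcripts did. The members had 230 transcripts annotated as protein_coding, 172 as retained_intron (a transcript that keeps intronic sequence and encodes no known protein), 62 as processed_transcript (no open reading frame) and 24 as nonsense_mediated_decay. Retained intron transcripts held 50.3 ± 2.41% of the summed transcript TPM of the members (SD, n = 2) and coding transcripts 34.1 ± 2.86%. Processed transcripts held 14.3 ± 0.52% and decay targets 1.40 ± 0.07%. Over expressed protein-coding genes the retained intron share was 38.2 ± 1.85% and the coding share 49.2 ± 1.53%. In the second quantification the order depended on the library, with 44.0% and 40.4% of the members' TPM on retained intron transcripts in replicates 1 and 2 and 39.6% and 43.8% on coding ones.

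The retained intron share of the summed TPM was 50.8% and 46.3% in replicates 1 and 2 for the large subunit, against 54.1% and 52.9% for the small subunit. In the second quantification it was 41.0% and 36.2% for the large subunit, against 49.3% and 48.3% for the small subunit. Coding transcripts there held 43.6% and 48.9% for the large subunit, more than retained intron ones, against 32.5% and 34.2% for the small subunit. This sum is weighted to the highest genes, and Rpl23 and Rpl36, both high, have no annotated retained intron transcript. Rpl23 had 86.5% and 86.6% of its level on processed transcripts. Rpl36 had 100% on coding transcripts in both libraries, which the annotation fixes, since its only annotated transcript is a coding one.

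**Figure D2:**
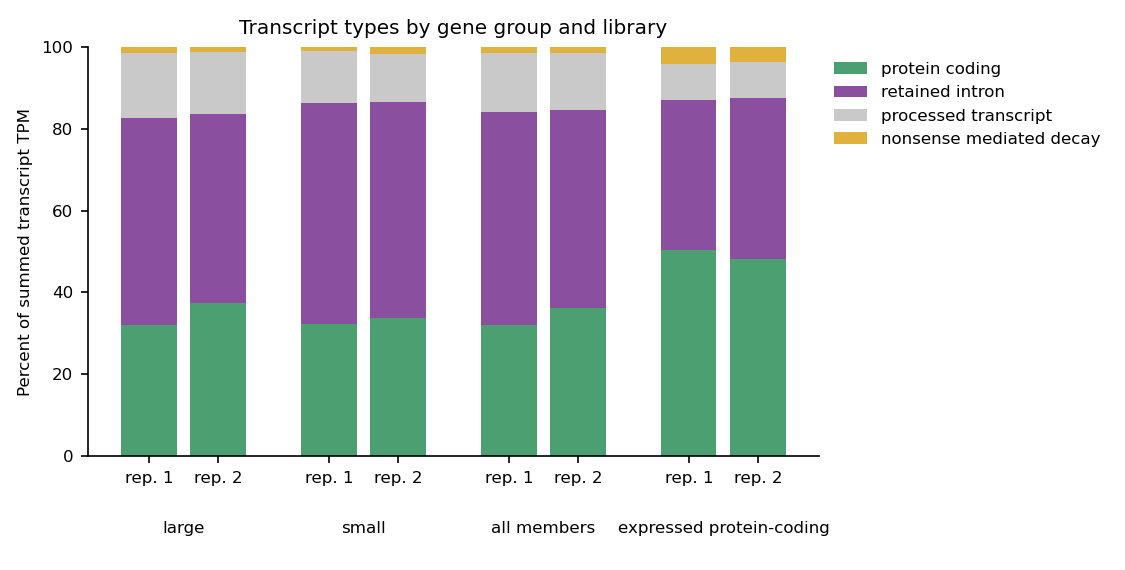
Percent of summed transcript TPM, first quantification, by transcript type for large subunit genes, small subunit genes, all members and expressed protein-coding genes, a stacked bar per library. Retained intron transcripts take 46.3 to 54.1% in the ribosomal protein bars and 36.8 to 39.5% in the protein-coding bars.

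Gene by gene, the retained intron share gives how much of the gene's summed transcript TPM, in percent, lies on its retained intron transcripts. Reads on introns were not examined, so retained introns and introns of RNA still being spliced were not told apart. Such a transcript was annotated for 34 of 46 expressed large subunit genes and 27 of 30 small subunit genes, against 68.6% of expressed protein-coding genes. The 12 large subunit genes without one were Rpl7a, Rpl11, Rpl17, Rpl22, Rpl23, Rpl27, Rpl29, Rpl32, Rpl35, Rpl36, Rpl38 and Rplp1, and the 3 small subunit genes were Rps6, Rps15 and Rps27a. Of the 61 genes with one, 39 had a share of 50% or more in both libraries, beside a background of 36.4% of 5233 protein-coding genes. These were 23 of 34 large subunit genes and 16 of 27 small subunit genes.

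The median share was 68.7% in replicate 1 and 65.8% in replicate 2 for the large subunit, against 63.8% and 59.7% for the small subunit. Over all 61 genes the median was 64.75% and 59.9%, beside 44.7% and 47.2% for protein-coding genes. The difference between subunits, 5.51 ± 0.82 percentage points (SD, n = 2), turned round in the second quantification, where the medians of the same genes were 54.9% and 51.2% for the large subunit, against 55.9% and 59.97% for the small subunit. The subunits are therefore not ordered by these data. The higher share of the family beside the protein-coding median kept its direction in the second quantification, with 55.9% and 58.3% for the members beside 43.0% and 45.7% for protein-coding genes.

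**Figure D3:**
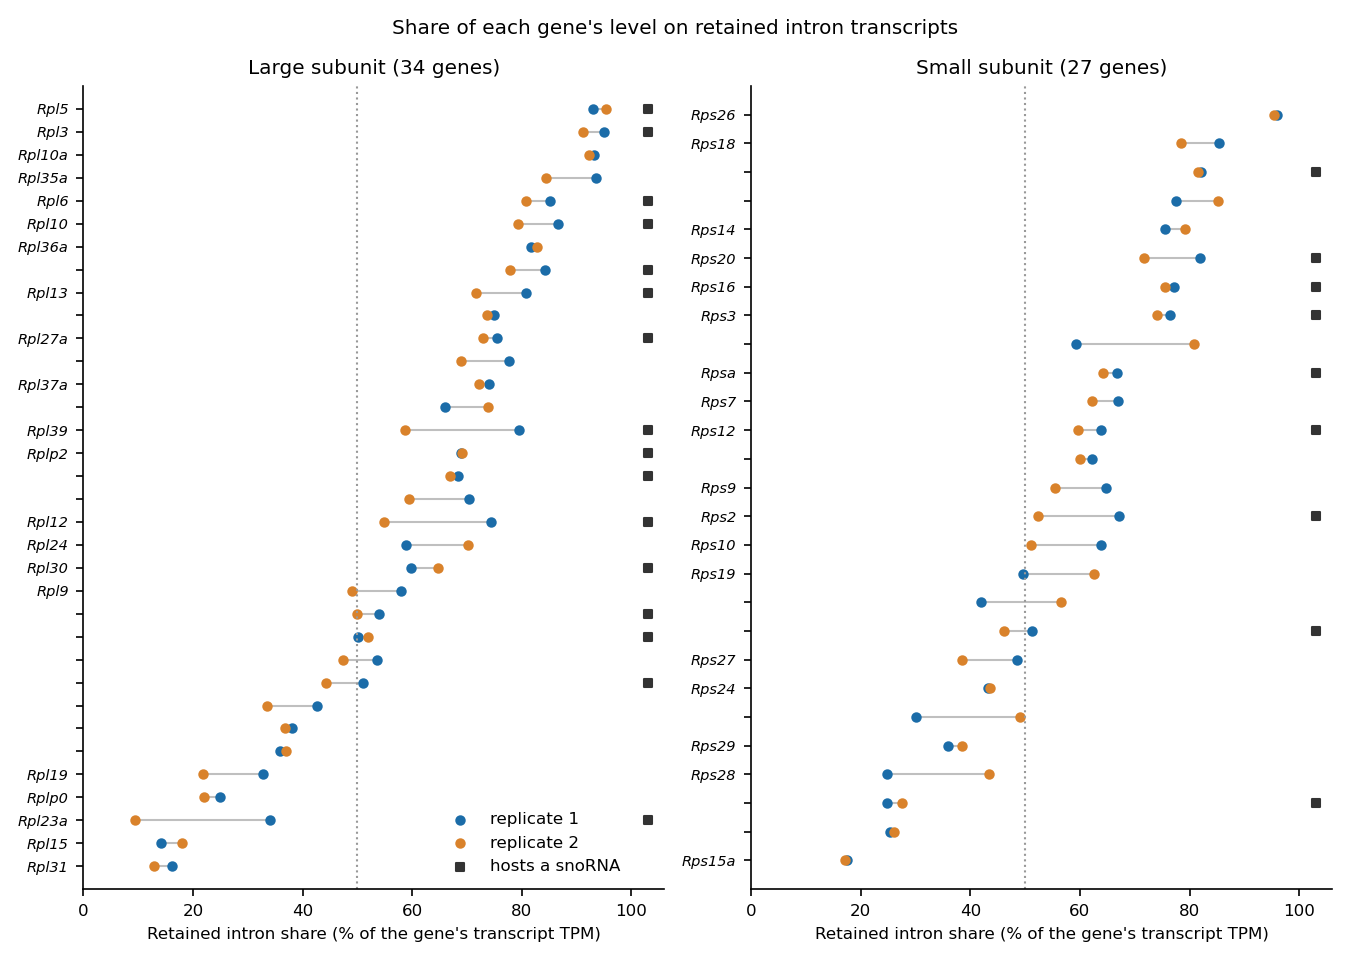
Retained intron share of each expressed gene with such a transcript, 34 large subunit genes left and 27 small subunit genes right, with those named in the text labelled; blue is replicate 1, orange replicate 2, black squares mark genes that host a snoRNA and the dotted line is at 50%. Shares run from 14.6% in Rpl31 to 95.7% in Rps26 as means of the libraries, and 39 genes are at or above the line in both.

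The share ran widely in both subunits. Rps26, whose protein contacts messenger RNA just upstream of the start codon, had 95.9% and 95.4% in replicates 1 and 2, the highest of all. Rpl5 had 93.0% and 95.4%, Rpl3, near the catalytic centre, 94.9% and 91.1%, and Rpl10a 93.1% and 92.3%. In these 4 genes the libraries differ by less than 4 points, far less than the spread between genes. Rpl35a (93.6% and 84.5%) and Rpl6 (85.2% and 80.7%) completed the 5 highest of the large subunit. In the small subunit Rps18 (85.5% and 78.5%) and Rps14 (75.5% and 79.1%) were also among the 5 highest.

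At the low end stood Rpl31 (16.2% and 13.0%), Rpl15 (14.2% and 17.98%), Rplp0, the base of the ribosomal stalk (24.9% and 22.0%), and Rpl19 (32.8% and 21.9%). Rpl23a had 34.1% in replicate 1 and 9.37% in replicate 2, on 41.8 and 115 gene counts, so its low mean rests mainly on replicate 2. The lowest small subunit genes included Rps15a (17.6% and 17.1%), Rps28 (24.8% and 43.4%) and Rps29 (35.9% and 38.5%). In Rps15a the rest was on coding transcripts (82.4% and 82.9%).

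The sources used here do not say whether strand was used in counting. Annotated genes other than small RNAs overlap 25 of the 76 expressed members, a count not made for other protein-coding genes. Among the genes with the highest shares this holds for Rpl5 (Fam69a), Rpl3 (Syngr1), Rpl10a (CT025652.2), Rpl35a (Gm17106), Rps18 (Vps52) and Rps14 (Ndst1), so part of their reads may belong to the neighbour. Rps26 and Rpl6 overlap no such gene. Over the 39 genes without an overlap, the median retained intron share was 65.95% in replicate 1 and 62.2% in replicate 2.

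The 172 retained intron transcripts differ in what they keep. A complete intron of a coding transcript of the same gene was inside 86 of them, and the other 86, with 48.8% of the retained intron TPM in replicate 1 and 48.9% in replicate 2, held no such intron whole. Counting only the 86 with a complete intron, the median share over the 61 genes was 24.8% in replicate 1 and 23.7% in replicate 2. For the large subunit it was 26.3% and 24.6%, against 21.5% and 23.7% for the small subunit. The annotation's class is therefore wider than transcripts with a whole intron. Of the 10 genes with the highest shares, 5 had a leading retained intron transcript with a complete intron, among them Rpl3-204 (10.48 and 10.55 TPM) and Rpl10a-206 (10.4 and 11.2 TPM), while the leading ones of Rps26 and Rpl5 had none.

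The complete introns numbered 113, had a median length of 262 bases and all began with GT and ended with AG, the usual splice sites. The 3 shown are from the leading retained intron transcripts of Rpl10, Rps16 and Rpl13. They are short introns that these annotated transcripts contain, with and without a snoRNA. Rpl13 was chosen after its values were seen. Positions are on mm10, letters are from the GENCODE M21 transcripts, 5′ to 3′ on the gene's strand, and capitals mark the splice site bases and, inside, the snoRNA.
Rpl10-208, chrX:74271719-74271799, plus strand: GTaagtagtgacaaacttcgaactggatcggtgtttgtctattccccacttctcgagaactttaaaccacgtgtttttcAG
Rps16-202, chr7:28352274-28352362, plus strand: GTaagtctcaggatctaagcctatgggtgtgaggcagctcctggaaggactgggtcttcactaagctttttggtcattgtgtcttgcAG
Rpl13-202, chr8:123102987-123103182, plus strand, with Snord68: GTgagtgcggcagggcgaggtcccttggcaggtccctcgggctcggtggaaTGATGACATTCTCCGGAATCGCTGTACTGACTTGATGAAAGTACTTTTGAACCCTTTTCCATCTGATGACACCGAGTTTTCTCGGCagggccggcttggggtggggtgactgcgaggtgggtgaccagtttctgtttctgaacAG

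The Rpl10 intron above has 81 bases, shorter than the sequenced fragments of 250 to 400 bases. Its transcript, Rpl10-208, had 20.0 TPM in replicate 1 and 17.9 TPM in replicate 2, and Rpl10 as a whole had a retained intron share of 86.6% and 79.2%. Rps16-202, with an intron of 89 bases, had 2.08 and 1.87 TPM. Rpl13-202, whose intron of 196 bases contains Snord68, had 4.38 and 5.31 TPM. Snord68 itself, counted as a gene of its own, had 0 counts in both libraries. Whether reads of Rpl13-202 lay on the snoRNA was not examined.

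Within the span and on the strand of 29 expressed ribosomal protein genes lay 56 annotated snoRNAs. The hosts were 20 of 46 large subunit genes and 9 of 30 small subunit genes, and hosts among other protein-coding genes were not counted. Among genes with a retained intron transcript, the 25 hosts had a median share of 74.4% in replicate 1 and 66.9% in replicate 2, against 58.45% and 56.0% for the 36 without a snoRNA. In the second quantification the hosts had 70.9% and 67.1%, against 51.0% and 47.6% for those without one. Of the hosts 21 of 25 were at 50% or more in both libraries, and of the others 18 of 36. By expected counts the medians were 66.0% and 65.4% for hosts, against 56.6% and 58.0% for those without one. In the small subunit alone, expected counts gave the opposite order, with 57.4% and 55.7% for the 9 hosts, against 65.4% and 59.8% for the 18 others. Transcripts that contain a whole snoRNA held 17.9% and 18.6% of the retained intron TPM of the family.

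Hosted snoRNAs with counts of their own were the longer ones, by a limit set after the values were seen. All 34 shorter than 120 bases had 0 counts in both libraries, while 18 of the 22 at or above it had counts. The highest were Snord15b, of 145 bases, with 33285 and 39252 TPM in replicates 1 and 2, and Snord15a, with 11922 and 7780 TPM, both in Rps3, a small subunit gene of 8.93 and 10.7 TPM chosen after its values were seen. Rps3 had a retained intron share of 76.5% and 74.1%. A TPM of so short an RNA rests on a small effective length, here 3516 and 4750 counts for Snord15b, beside 612 and 757 counts on all of Rps3. Whether snoRNA fragments entered the counts of their hosts was not tested.

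The share held up unevenly when the reads were quantified a second time. Over 61 genes the mean shares of both quantifications had a Pearson r of 0.742 and a Spearman rho of 0.737, all from the same reads. Rps26 (98.2% and 97.3% in replicates 1 and 2 in the second quantification), Rpl10a (93.8% and 91.6%) and Rpl3 (92.3% and 87.3%) remained high. Rpl35a had 44.7% and 29.1%, Rps14 46.4% and 51.5%, and Rpl39 29.4% and 17.5%, where the first quantification gave Rpl39 79.6% and 58.7%. In the other direction Rps28 had 56.6% and 74.6%, over 1.5 times its value in the first. Shares of single genes such as these 4 depend on the quantification.

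**Figure D4:**
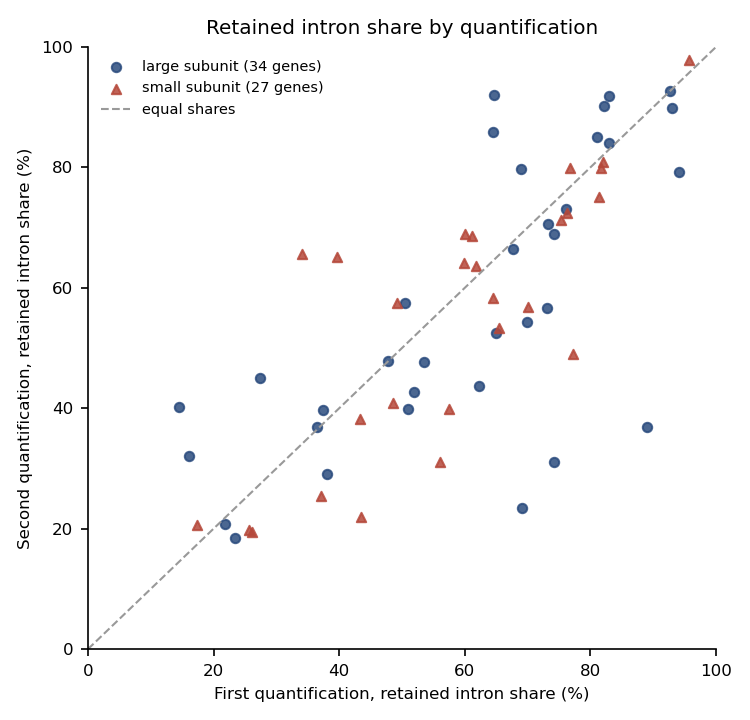
Retained intron share (percent, mean of the 2 libraries) of 34 large subunit genes (circles) and 27 small subunit genes (triangles), first quantification on the x axis and second on the y axis, with the line of equal shares. Points scatter around the line (Pearson r of 0.742), and Rpl35a (89.0% and 36.9%) and Rpl39 (69.1% and 23.4%) are among those far below it.

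Gene levels moved too. The Spearman rho of mean level between quantifications was 0.7995 over 76 genes and the Pearson r 0.576. Rpl36 had 112 and 233 TPM in the second quantification, 4.61 times its mean in the first, and was the highest member there. Rpl39 had 8.72 and 27.0 TPM (6.32 times), Rpl24 had 31.6 and 56.1 TPM (4.45 times), Rps7 had 42.7 and 56.6 TPM (3.11 times), and Rps27l had 3.92 and 9.00 TPM. The 5 with the largest shift down were Rpl9, Rpl10, Rps12, Rpl12 and Rpl10a, at 0.689 to 0.801 times the first. TPM was higher in the second quantification in general, with medians of 15.2 and 23.9 TPM for the expressed members in replicates 1 and 2, and of 8.77 and 17.7 TPM for expressed protein-coding genes. Rpl24 also had the widest posterior SD of its count, 11.7% and 10.6% of the count in replicates 1 and 2, beside medians of 0.574% and 0.437%.

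Retrotransposed copies are the family's known source of shared reads. Over the transcript with the longest coding sequence of each expressed member, a median of 57.6% of all 31-base stretches occurred in transcripts of another gene, and 76 of 76 shared some with a pseudogene. For 6 members the share was 90% or more, among them Rpl5 (94.8%), Rpl36 (94.1%) and Rps18 (90.8%). Other protein-coding genes were not read this way, so these values have no background beside them. Across the 76 genes the share of stretches had a Spearman rho of -0.07 with the size of the difference between quantifications, taken without its sign. The 291 pseudogenes named after a member held 918 and 2000 counts, 4.62% and 6.66% of the members' own counts in replicates 1 and 2. The processed pseudogene Rpl36-ps2 alone was listed at 120 and 190 TPM, above its parent, so the level of Rpl36 is uncertain.

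Between the libraries, the family was lower in replicate 2 than in replicate 1 relative to expressed protein-coding genes. On counts scaled by TMM (a factor per library from genes assumed alike), the median log2 ratio of replicate 2 over replicate 1 was -0.52 for 46 large subunit genes, against -0.54 for 30 small subunit genes. It was -0.12 for expressed protein-coding genes, so the family lay 0.40 below them on the log2 scale, or at 0.758-fold. Other lists lay lower still relative to protein-coding genes, with a median of -0.58 for the 7 expressed macrophage markers, 4 of them 1.5-fold or more lower and 0 higher, and of -0.51 for ribosome biogenesis genes. At 1.5-fold or more, 33 of 76 members were lower in replicate 2, beside 19.0% of protein-coding genes, and 0 were higher, beside 11.1%. The direction depends on the scale. By TPM 62 of the 76 were higher in replicate 2, as were 93.7% of protein-coding genes, the median log2 ratio of TPM + 1 being 0.31 for members and 0.67 for protein-coding genes. With library size only the members' median was 0.093 and the protein-coding median 0.49. The distance to protein-coding genes was 0.40 under TMM, DESeq2 and library size scaling, which shift every gene alike, and 0.43 in the second quantification.

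**Figure D5:**
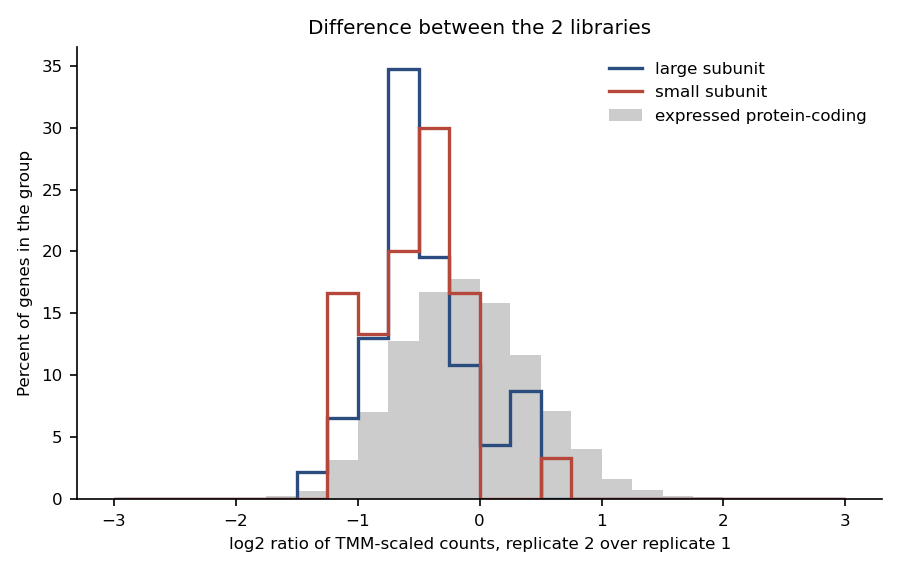
Distribution of the log2 ratio of TMM-scaled counts, replicate 2 over replicate 1, in percent of genes of each group: large subunit (blue line, 46 genes), small subunit (red line, 30 genes) and expressed protein-coding genes (grey bars, 7633 genes). Both subunits peak to the left of the grey bars, with medians of -0.52 and -0.54 beside -0.12.

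Among the 56 members with 100 or more counts in both libraries, Rpl12 was among those with the lowest ratio, with 504 counts in replicate 1 and 511 in replicate 2, a scaled log2 ratio of -1.06. Rps10 (-1.01), Rpl37a (-1.01) and Rplp0 (-0.90) followed. Rps20 had the highest, with 225 counts in replicate 1 and 705 in replicate 2 (0.57 on the log2 scale), followed by Rpl27 (0.33), Rpl30 (0.31), Rpl17 (0.28) and Rpl15 (0.19). Both ends hold genes of both subunits. The libraries also differ in starting RNA, 250 ng against 500 ng, and the part of that in these ratios was not tested. Member genes are short, with a median of 3.27 kb beside 26.7 kb for expressed protein-coding genes, and gene length had a Spearman rho of 0.13 with the ratio within the family and 0.06 among protein-coding genes.

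Retained intron shares were lower in replicate 2 for 41 of the 61 genes, 25 of 34 in the large subunit and 16 of 27 in the small subunit. In the second quantification they were lower for 34 and higher for 27, and in the small subunit 13 were lower and 14 higher. Among protein-coding genes 3179 were higher and 2004 lower in replicate 2.

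Genes that work with the ribosomal proteins were read the same way. All 5 ribosomal proteins that the naming rule leaves out passed 1 TPM in both libraries. The highest was Rack1, a signalling scaffold on the small subunit (26.1 and 35.6 TPM), then Fau, whose product is a fusion with a ubiquitin-like protein (14.2 and 14.8 TPM). All 15 genes on a list of translation factors and other TOP messages passed as well. Their median was 13.9 ± 1.15 TPM (SD, n = 2), near the members' own median. Pabpc1, the poly(A) binding protein, stood at 129 and 279 TPM, Eef1a1, the elongation factor that brings transfer RNA, at 165 and 178 TPM, and Eif4a2, an initiation helicase, at 98.1 and 150 TPM, each above every ribosomal protein gene in the first quantification. In the second, Rpl36 was above Eif4a2 (92.0 and 146 TPM) in both libraries and above Eef1a1 (127 and 158 TPM) in replicate 2. The median retained intron share on this list was 56.0%, over the 12 genes with such a transcript.

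The ribosome biogenesis list had 39 of 44 genes expressed, and its median over all 44 was 5.43 ± 1.31 TPM. Its highest gene was Sbds, which helps release a factor from new large subunits (52.2 and 119 TPM), followed by Rrp1 (34.1 and 42.4 TPM) and Ubtf, a factor of ribosomal RNA transcription (30.5 and 26.9 TPM). In the ratio between libraries 20 of these 39 were 1.5-fold or more lower in replicate 2 and 1 was higher, beside 19.0% and 11.1% of protein-coding genes. Of the 15 translation factors and other TOP messages 3 were lower and 0 higher, near the background share of lower genes. Among 16 mTOR and TOP regulators 12 passed, and the highest was Larp1, which binds TOP messages (39.8 and 76.1 TPM), before Rptor, the mTOR partner that picks substrates (29.2 and 31.6 TPM), and Eif4e, the cap-binding protein (17.5 and 36.3 TPM). Of these 5 of 12 were lower and 0 higher by the same rule and beside the same 19.0% and 11.1%.

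Start sites were read for the members that could be matched, because the TOP run and a few promoter motifs are what these genes are known to share. RefSeq windows of 250 bases before to 50 after the start (GRCm38.p6) matched 62 of the 82 members, with 74 start sites. A C followed by 4 pyrimidines lay exactly at the start in 14 of the 74 (18.9%), beside 2.51% of all 32851 starts. Within 5 bases of the annotated start it was found in 31 (41.9%), beside 18.3%. By subunit it was at the start in 7 of 45 large subunit starts (15.6%) and 7 of 29 small subunit starts (24.1%). The 4 shown are expressed members, 20 bases on either side of the start, with the pyrimidine run from the first transcribed base in capitals.
Rpl15, chr14:18270967-18271006, minus strand: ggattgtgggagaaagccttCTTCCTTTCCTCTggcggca
Rpl35a, chr16:33056462-33056501, plus strand: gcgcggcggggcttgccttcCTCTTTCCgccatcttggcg
Rps10, chr17:27635225-27635264, minus strand: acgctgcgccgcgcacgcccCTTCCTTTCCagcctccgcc
Rps18, chr17:33955646-33955685, minus strand: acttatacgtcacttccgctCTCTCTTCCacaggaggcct

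In these 4 the run has 13, 8, 10 and 9 pyrimidines. Their mean levels on chromatin were 8.25 TPM for Rpl15, 11.1 TPM for Rpl35a, 15.6 TPM for Rps10 and 28.1 TPM for Rps18. In the whole window of 300 bases, on both strands, the letters TTCCGG, the core of sites for ETS factors such as GABP, were found in 47.3% of member starts, beside 14.9% of all starts and 29.8% of starts of expressed protein-coding genes. CTTTCC was found in 51.4%, beside 26.6% and 26.7%. TATAAA was found in 8.11%, beside 13.6% and 6.88%. TTCCGG and CTTTCC can overlap, and a match of letters is not a measured site.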

How the data were processed

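The series holds 2 libraries of 1 group. Expected counts, TPM and the posterior standard deviation of each count (a score here) were deposited by the authors per gene and per transcript, and per the deposited text they come from mm10 alignments annotated with GENCODE M21. Estimated counts and TPM per transcript from a transcript index, also deposited, are called the second quantification. Aligner, quantifier and strand use: not given in the sources used here. Antisense genes may therefore share reads.

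Rows outside the annotation held 0.409% and 0.277% of expected counts in replicates 1 and 2 and were left out. A total of 3 counts is 0.140 and 0.101 CPM. Counts were rounded and scaled by TMM (edgeR 4.0.16, on genes reaching 20 counts over both libraries), with DESeq2 1.42.0 size factors as an alternative, in R 4.3.3, and 0.5 was added before log ratios. Levels were compared as log2(TPM + 1). With 1 group, and genes not being replicates, no test was run and no p-value is given. Both replicates carry 1 donor label, so an SD may be technical. Calls between libraries are at 1.5-fold.

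Genes were named by rule: per subunit the 6 highest and 4 lowest levels and the 5 highest and 5 lowest retained intron shares; the 5 lowest and 5 highest ratios at 100 counts or more; the 5 largest shifts between quantifications each way; members under 1 TPM; paralogs; and the 3 highest of each list. Some genes that meet it are not reported here. Members, lists and motifs were chosen with earlier results of these data known. Promoter sequences are from RefSeq.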

Additional observations from a re-analysis of the deposited data

How the results depend on the processing

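The level difference between subunits, large minus small, was 0.12 on the log2 scale, and it was 0.03 to 0.21 with either library left out and -0.046 with CPM. The 76 expressed members were 76 to 78 with either library left out and 68 at a threshold of 5 TPM. The difference in retained intron share between subunits, 5.51 points, was 4.93 to 6.08 with either library left out, 4.25 by expected counts, -4.20 in the second quantification with its own 1 TPM rule and -6.69 with genes lacking such a transcript counted as 0. Alternatives chosen after seeing the data gave 2.85 for transcripts with a complete intron only and 6.66 without members that overlap another gene. The median share of all members, 62.35%, was 59.9 to 64.75% with either library left out, 56.4% in the second quantification, 54.1% with genes lacking such a transcript counted as 0 and 24.2% for transcripts with a complete intron only. The members' median log2 ratio, -0.52, was -0.66 in the second quantification, -0.40 relative to protein-coding genes (chosen after seeing the data), 0.093 by library size and 0.31 by TPM + 1. Members lower by 1.5-fold numbered 33 of 76 under TMM (19.0% of protein-coding genes), 26 under DESeq2 (14.95%), 3 by library size (1.40%) and 43 in the second quantification (24.0%). Members higher numbered 7 by library size, beside 43.4% of protein-coding genes. The causes were not tested beyond what each alternative changes. A ratio needs both libraries, so neither could be left out. No paired analysis was possible because the series has a single group.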

Other observations

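Among pseudogenes named after a member, 19 of 291 were expressed in the first quantification and 27 in the second. Rpl36-ps2 was followed by Rps27-ps1 (14.1 and 24.1 TPM in replicates 1 and 2), Rpl26-ps4 (8.39 and 19.7 TPM), Rps2-ps9 (4.08 and 13.0 TPM) and Rpl36a-ps4 (7.11 and 9.58 TPM), and the Rps27, Rpl26 and Rpl36a copies were above their parents in both libraries, all chosen after their values were seen, with Rps27-ps1 on only 18 and 36 counts. As a share of the members' counts, the pseudogenes had 6.74% and 10.9% in the second quantification.

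The naming pattern also takes in 4 genes without a coding transcript, which were not counted as members. Rpl32l was listed at 1.05 and 1.30 TPM, Rpl37rt at 0.58 and 0.73 TPM, Rps4l at 0 and 0.11 TPM, and Rpl6l at 0 in both. Rpl37rt had 10.01 and 34.0 TPM in the second quantification.

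Gene level was a weak guide to the level of coding transcripts. Over 76 members the Spearman rho of both was 0.333. A coding share of 50% or more in both libraries was found in 21 genes and one under 20% in both in 19. Rpl36 and Rplp1 are among the 21 by annotation alone, since the only transcript annotated for each is a coding one. The rho and these counts were not worked out for other protein-coding genes, so they are not shown to be particular to the family. Rpl3, with 20.5 and 25.1 TPM as a gene, had 0.342% and 2.95% of it on coding transcripts. The retained intron share had a rho of 0.211 with gene level and of 0.469 with the number of retained intron transcripts annotated for the gene, over 61 genes that share both libraries and the annotation.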
